A study of Mus musculus with 13 samples.

Results

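Homeostatic microglia surface and lysosome genes are 37 genes that encode receptors, adhesion and signalling proteins, secreted proteins and lysosomal enzymes of the resting microglial cell. They were chosen by name, with earlier results of these data known. For each gene, the counts of all ATAC-seq peaks annotated to it and lying within 50000 bp of a transcription start site were summed, and promoter peaks and distal peaks were also summed apart. Of the 37 members, 36 had at least 1 such peak, out of 13874 genes with a peak in this window. Fcrls, an Fc receptor-like gene, had none. The 36 members held 222 peaks, 59 of them promoter peaks and 163 distal, with 1 to 21 peaks per member and a median of 5. All 36 had a promoter peak and 33 had a distal peak, while Hexa, C1qb and C1qc had promoter peaks only.

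Microglia keep much of this gene set expressed through factors such as PU.1, MEF2 and SALL1, together with TGF-beta and signals through the receptor CSF1R. Its surface products sense fractalkine, lipids and sialic acids, and its lysosomal products digest what the cell takes up. Part of the homeostatic programme is known to be turned down when microglia meet lipopolysaccharide (LPS), a bacterial cell wall component sensed by Toll-like receptor 4.

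ATAC-seq, which uses a transposase to cut and tag open chromatin, was run on CD11b-high, CD45-intermediate, Ly6c-negative cells sorted from brains of male C57BL/6J mice. Every mouse received an injection at 10 weeks of age and another 5 weeks later, with an oral course of BLZ945 or vehicle in between, and was sampled at 15 weeks, 3 hours after the last injection. BLZ945 (169 mg/kg per day for 5 days) blocks CSF1R, so that microglia are depleted and the brain is then repopulated. The LBL mice received LPS (1 mg/kg) at both times with BLZ945, the PBL mice PBS first and LPS last with BLZ945, and the PBP mice PBS at both times with BLZ945. The LL, PL and PP mice received the same injections, in that order of groups, with vehicle. PBL had 3 libraries and each other group 2, and each library pooled 2 animals with 40000 cells from each. PBL 3_4 and PBL 4_5 both carry the animal number 4, and whether they share an animal is not stated.

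The libraries held 927840 to 2772688 counts in peaks. Summed locus signal of 5 microglia markers was 866 to 1130 CPM (counts in the peak or sum scaled to the library's total in peaks). Of 5 monocyte markers, Ly6c2, Chil3 and Fn1 had no peak, and the other 2 summed to 107 to 129 CPM in LBL, 95.3 to 104 in PBL, 82.8 to 95.6 in PBP, 108 to 110 in LL, 104 to 115 in PL and 85.6 to 93.4 in PP. Of 5 neutrophil markers, S100a8, Ly6g and Retnlg had no peak, and the other 2 summed to 18.1 to 35.8 CPM over all libraries. The sum was 286 to 346 CPM for 4 of 5 oligodendrocyte markers and 8.1 to 23.9 CPM for 1 of 4 astrocyte markers. For 2 of 4 neuron markers it was 28.4 to 31.7 CPM in LBL, 31.4 to 39.2 in PBL, 42.6 to 47.4 in PBP, 34.9 to 36.9 in LL, 32.4 to 33.7 in PL and 58.7 to 58.8 in PP. The sum over 6 border macrophage markers with a peak, of 8 listed, was 269 to 291 CPM in LBL, 225 to 238 in PBL, 172 to 202 in PBP, 209 to 216 in LL, 176 to 232 in PL and 147 to 178 in PP, with no peak at Lyve1 or Pf4. That of 4 endothelial markers was 242 to 251 CPM in LBL, 262 to 293 in PBL, 194 to 213 in PBP, 241 to 253 in LL, 266 to 295 in PL and 187 to 224 in PP. The part of these markers in the results below was not tested, and in bulk libraries fewer cells with an open site and a site less open per cell cannot be told apart. LBL, PBL and LL cells were sorted on an XDP machine, each group on a day of its own, and PBP, PL and PP cells on an Astrios machine. PL 3_4 stood apart, with 53.2% of its counts in promoter peaks against 55.5% to 60.1% in the other libraries. It shared its isolation day with PP, while PL 1_2 shared its day with PBP.

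Promoters of members whose promoter sums were called are shown first. RefSeq promoter windows on GRCm38.p6, from 250 bases before to 50 after the start, were given for 29 of the 37 members, and 28 of these had a window overlapping one of their promoter peaks. Printed 5′ to 3′ on the strand of the gene are those of the 5 members whose promoter sum, over all promoter peaks, fell in PBL against PBP, of the other 2 whose sum fell in PL against PP, and of Ctsd, which encodes the lysosomal protease cathepsin D. Capitals mark matches to the motifs searched.
Crybb1, chr5:112255570-112255869 (+ strand): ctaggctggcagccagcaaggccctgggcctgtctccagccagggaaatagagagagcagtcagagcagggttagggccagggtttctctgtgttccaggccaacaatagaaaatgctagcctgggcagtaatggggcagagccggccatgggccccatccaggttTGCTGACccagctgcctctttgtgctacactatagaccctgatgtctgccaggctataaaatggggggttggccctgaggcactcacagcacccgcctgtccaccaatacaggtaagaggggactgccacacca
Cx3cr1, chr9:120068247-120068546 (- strand): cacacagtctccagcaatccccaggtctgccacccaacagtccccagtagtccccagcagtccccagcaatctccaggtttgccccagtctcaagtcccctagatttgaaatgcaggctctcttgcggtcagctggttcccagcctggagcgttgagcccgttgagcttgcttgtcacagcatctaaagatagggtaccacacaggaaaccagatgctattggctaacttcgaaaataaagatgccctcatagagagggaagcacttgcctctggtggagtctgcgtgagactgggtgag
Olfml3, chr3:103737952-103738251 (- strand): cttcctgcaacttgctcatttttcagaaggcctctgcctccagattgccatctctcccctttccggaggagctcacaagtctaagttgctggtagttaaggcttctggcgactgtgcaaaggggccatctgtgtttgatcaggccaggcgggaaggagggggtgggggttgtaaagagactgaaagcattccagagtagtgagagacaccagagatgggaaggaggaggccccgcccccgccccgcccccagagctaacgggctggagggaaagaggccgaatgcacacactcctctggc
Rhob, chr12:8499960-8500259 (- strand): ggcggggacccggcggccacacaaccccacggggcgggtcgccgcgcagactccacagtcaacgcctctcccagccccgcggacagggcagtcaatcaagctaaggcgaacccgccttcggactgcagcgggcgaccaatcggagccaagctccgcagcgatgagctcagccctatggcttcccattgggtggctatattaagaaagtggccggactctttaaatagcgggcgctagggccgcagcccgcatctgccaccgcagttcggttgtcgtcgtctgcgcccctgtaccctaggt
Rgs10, chr7:128418123-128418422 (- strand): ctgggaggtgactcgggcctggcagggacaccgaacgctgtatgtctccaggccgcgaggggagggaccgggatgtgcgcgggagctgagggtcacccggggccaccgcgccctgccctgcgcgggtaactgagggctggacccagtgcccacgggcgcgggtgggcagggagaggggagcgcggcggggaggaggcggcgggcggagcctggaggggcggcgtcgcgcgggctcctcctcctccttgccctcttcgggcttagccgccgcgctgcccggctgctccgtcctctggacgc
Inpp5d, chr1:87620062-87620361 (+ strand): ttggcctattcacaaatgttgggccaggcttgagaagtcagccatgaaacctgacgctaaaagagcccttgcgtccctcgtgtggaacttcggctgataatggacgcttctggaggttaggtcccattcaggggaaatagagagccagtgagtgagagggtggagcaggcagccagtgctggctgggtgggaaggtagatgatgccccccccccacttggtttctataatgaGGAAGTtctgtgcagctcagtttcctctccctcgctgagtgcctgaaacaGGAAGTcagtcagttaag
Ltc4s, chr11:50238483-50238782 (- strand): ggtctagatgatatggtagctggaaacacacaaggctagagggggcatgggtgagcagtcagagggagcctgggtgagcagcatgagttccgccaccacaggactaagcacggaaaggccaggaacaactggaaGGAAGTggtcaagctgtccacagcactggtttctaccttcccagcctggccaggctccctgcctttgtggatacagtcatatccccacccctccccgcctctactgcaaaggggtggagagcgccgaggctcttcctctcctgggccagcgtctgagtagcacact
Ctsd, chr7:142387778-142388077 (- strand): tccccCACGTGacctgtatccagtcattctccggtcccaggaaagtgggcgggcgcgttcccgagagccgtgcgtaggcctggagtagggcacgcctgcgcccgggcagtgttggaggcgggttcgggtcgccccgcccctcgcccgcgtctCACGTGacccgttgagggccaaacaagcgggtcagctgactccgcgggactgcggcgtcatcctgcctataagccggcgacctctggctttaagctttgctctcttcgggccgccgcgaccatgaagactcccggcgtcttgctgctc

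The printed window is not always the peak that was called. The Rgs10 window lies at a peak that was lower in PL (log2 change -0.78, adjusted p = 0.0265) and was not called in PBL (-0.28, adjusted p = 0.432), where the called Rgs10 peak is another, 434 bp from a start site (-0.46, adjusted p = 0.00584). The Ltc4s window lies at a peak that was not called in PL (-0.69, adjusted p = 0.0797), while the Ltc4s peak 468 bp from a start site was (-0.64, adjusted p = 0.0228).

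Matches were sought on both strands for GGAAGT (a core bound by PU.1 and other ETS factors), TGANTCA (AP-1), CACGTG (the E-box of the MiT/TFE family), TATTTNTAG (MEF2), TGCTGAC (MAF) and GGANTTTCC (NF-kB). GGAAGT or its complement stood in 11 of 32 member windows (34.4%), among them those of Inpp5d and Ltc4s, against 23.8% of 32851 mouse promoter windows of 300 bases. The Crybb1, Cx3cr1, Olfml3, Rhob and Rgs10 windows held no GGAAGT on either strand. CACGTG was found for 3 members, the lysosomal proteases Ctsd (2 matches), Ctsl and Lgmn, which is 9.38% of member windows against 7.15% of all windows. The Lgmn match stood in a window that overlaps no promoter peak, and the Lgmn window inside its promoter peak held none. TGANTCA matched in 6.25% of member windows (Adgrg1 and Trem2) against 7.81% of all, TGCTGAC in 6.25% (Crybb1 and Sparc) against 4.67%, TATTTNTAG in 3.12% (Entpd1) against 1.55% and GGANTTTCC in 3.12% (Ctsl) against 1.25%. These are matches of letters and do not show binding.

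How a single LPS injection changed these loci was asked with PL against PP in vehicle-treated mice and with PBL against PBP after BLZ945. With promoters as annotated, promoter sums of the members fell or were not called, whereas distal sums were called in both directions. Over all genes few promoter sums rose as well, so the lack of rises among the 36 members is near that share. By edgeR's quasi-likelihood test with Benjamini-Hochberg adjustment over all genes, a member being called at an adjusted p under 0.05, the promoter sum fell for 3 of 36 members in PL (8.33%, against 5.19% of 10849 genes tested) and rose for 0 (2.2% of all genes), with 11 at an unadjusted p under 0.05. In PBL it fell for 5 of 36 (13.9%, against 0.894% of all genes) and rose for 0 (1.69% of all genes), with 15 at an unadjusted p under 0.05. DESeq2 called 2 and limma-trend 4 member promoters in PL, and 2 and 5 in PBL. The median log2 change of the member promoters was -0.17 in PL against -0.10 over all genes, and -0.22 in PBL against -0.01 over all genes. PBL and PBP cells came from different sorters and days, so that for PBL against PBP the LPS injection, sorter and day cannot be told apart, while PL against PP lay within 1 sorter.

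**Figure D1:**
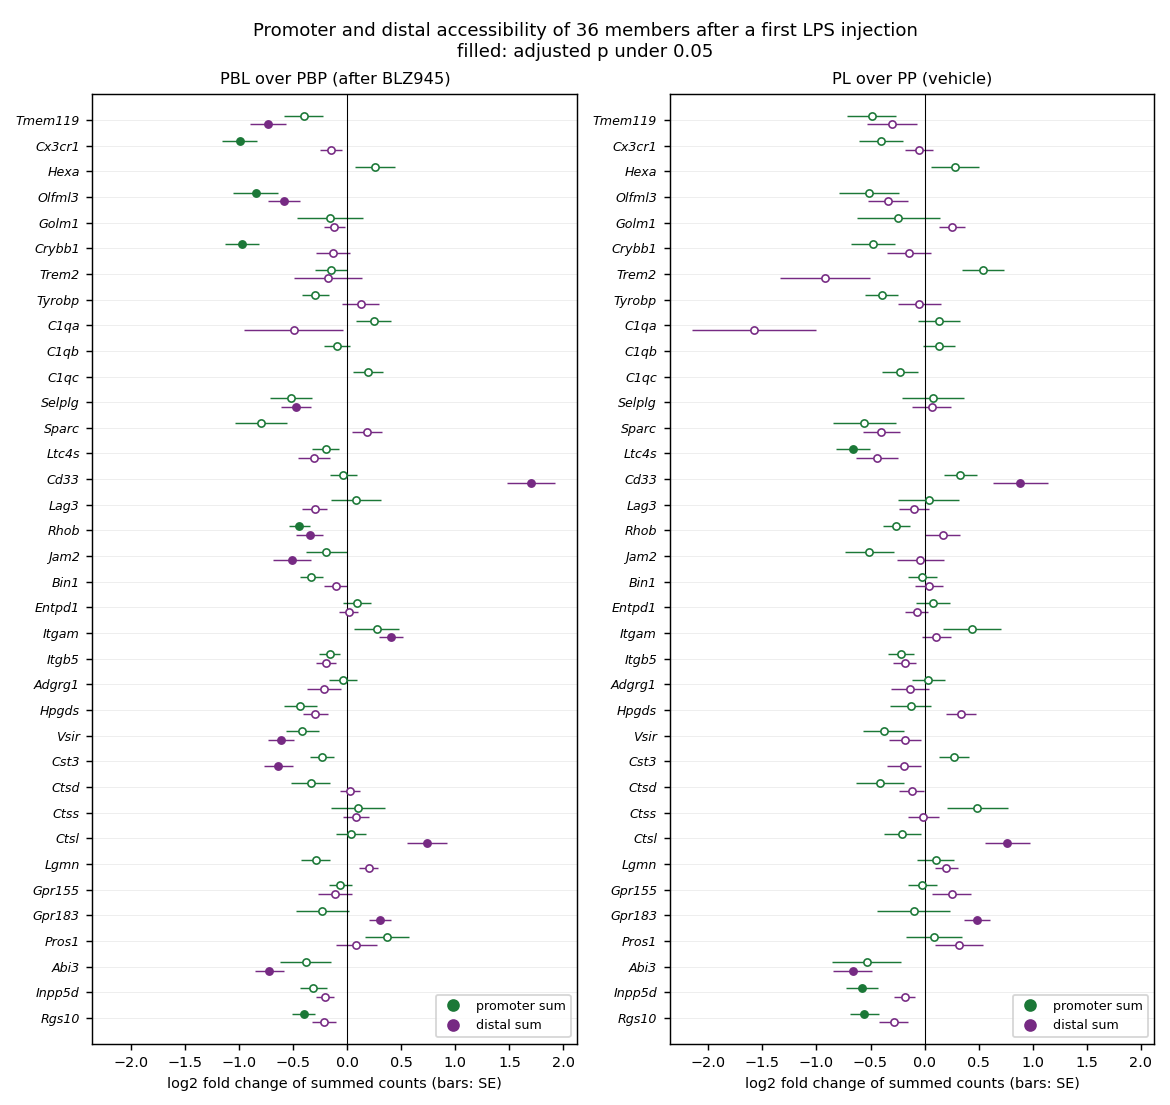
Log2 fold change (x axis, bars: SE) of the promoter sum (green) and the distal sum (purple) of each of 36 members (y axis), for PBL over PBP on the left and PL over PP on the right, with filled points for an adjusted p under 0.05. All filled promoter points lie below 0, and the filled distal points lie on both sides, from -0.74 for Tmem119 to 1.7 for Cd33 on the left.

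Crybb1, a beta-crystallin gene used as a microglia marker, had a promoter sum of 35, 42.9 and 41.3 CPM in PBL, against 63.3 and 97.8 CPM in PBP. The groups did not overlap, and PBP 3_4 was far above PBP 1_2. The log2 change was -0.98 ± 0.16 (adjusted p = 1.01e-05), and the call was lost without PBP 3_4 (0.101), where the log2 change was -0.66. Cx3cr1, the receptor for neuronal fractalkine, had a promoter sum of 35, 40.6 and 33.3 CPM in PBL, against 81.6 and 61.7 CPM in PBP. Each PBL library was below each PBP library. The log2 change was -0.996 ± 0.16 (adjusted p = 9.55e-06), and the call was lost without PBP 1_2 (0.0538). The distal sum of Cx3cr1 was 158, 161 and 158 CPM in PBL and 178 and 175 CPM in PBP, a log2 change of -0.15 ± 0.10 (adjusted p = 0.354) that was not called. Within it, a peak 3344 bp before the start was called lower, with 11.2, 7.39 and 8.78 CPM in PBL, against 18.3 and 15 CPM in PBP. That call was lost by DESeq2 and limma-trend, and without each of 4 libraries in turn. In PL against PP neither part of Cx3cr1 was called, with promoter sums of 41.4 and 40.4 CPM in PL and 56.7 and 51.8 CPM in PP (adjusted p = 0.221).

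Rhob, a small GTPase, had a promoter sum of 108, 118 and 112 CPM in PBL, against 153 and 154 CPM in PBP. PBL was lower throughout, with a log2 change of -0.44 ± 0.10 (adjusted p = 0.00294). Olfml3, which encodes a secreted olfactomedin-like protein, had a promoter log2 change of -0.85 ± 0.21 (adjusted p = 0.00778). Rgs10, a regulator of G protein signalling, was called in both comparisons. Its promoter sum was 128 and 85 CPM in PL, against 160 and 151 CPM in PP, a log2 change of -0.56 ± 0.13 (adjusted p = 0.0047). PL and PP did not overlap, and PL 3_4 was the lowest of the 4. In PBL it was 113, 111 and 107 CPM, against 146 and 144 CPM in PBP, a log2 change of -0.41 ± 0.11 (adjusted p = 0.0206). The PBL call of Rhob was lost without PBP 1_2 (0.059) or PBP 3_4 (0.0593), that of Olfml3 without PBP 1_2 (0.153), PBP 3_4 (0.11), PBL 3_4 (0.0765) or PBL 4_5 (0.0695), and that of Rgs10 without PBP 1_2 (0.223), PBP 3_4 (0.169), PBL 3_4 (0.0615) or PBL 4_5 (0.107).

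The other 2 promoters that fell in PL belong to Inpp5d and Ltc4s. Inpp5d encodes SHIP1, a phosphatase that dampens signalling from immune receptors. Its promoter sum was 95.8 and 75.5 CPM in PL, against 123 and 131 CPM in PP, with a log2 change of -0.58 ± 0.15 (adjusted p = 0.0084). Ltc4s, the leukotriene C4 synthase, had 68 and 61.6 CPM in PL, against 105 and 99.6 CPM in PP, a log2 change of -0.66 ± 0.16 (adjusted p = 0.0048). For both genes every PL library was lower than every PP library. The call was lost for Inpp5d without PP 1_2 (0.0729), PP 3_4 (0.109) or PL 3_4 (0.214), for Ltc4s without PP 1_2 (0.103) or PL 3_4 (0.0809) and for Rgs10 without PP 1_2 (0.107) or PL 3_4 (0.387). With isolation day as a term, the log2 changes were -0.75 for Inpp5d, -0.73 for Ltc4s and -0.87 for Rgs10. Only PL was split between isolation days, so that this term sets PL 3_4 alone against PP. It therefore adds no test beyond that library. In PBL against PBP the promoter sums of Inpp5d and Ltc4s were not called, with log2 changes of -0.31 ± 0.12 and -0.20 ± 0.13.

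**Figure D2:**
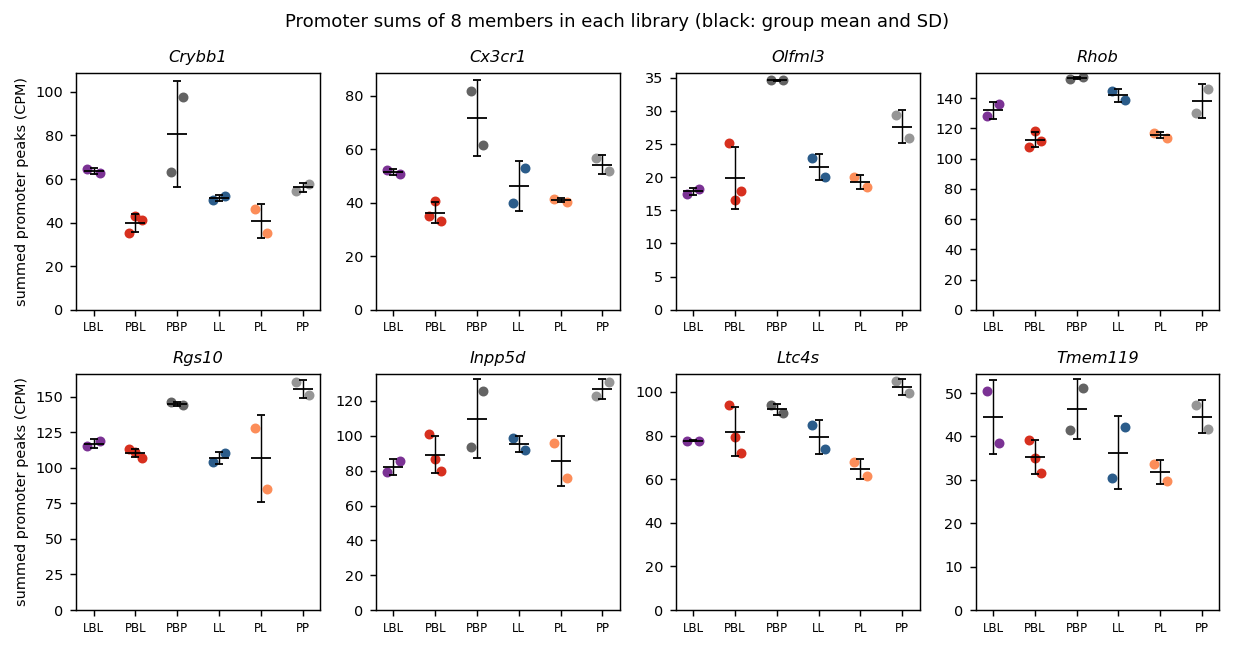
Promoter sums (y axis, CPM) of 8 members in each library (coloured points) of the 6 groups (x axis), with the group mean and SD in black. Crybb1, Cx3cr1, Olfml3, Rhob and Rgs10 lie lower in every PBL library than in every PBP library, and Rgs10 lies lower in PL than in PP.

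Among distal sums, 3 of 33 members rose in PL (9.05% of 8135 genes rose) and 1 fell (2.46% of all genes). In PBL, 4 of 33 rose (10.5% of all genes) and 8 fell (5.56% of all genes). The median log2 change of the members was -0.07 in PL against 0.05 over all genes, and -0.18 in PBL against 0.00 over all genes. The 4 distal sums called in PL, those of Cd33, Ctsl, Gpr183 and Abi3, were also called in the same direction in PBL. They are 100% of the PL calls and 33.3% of the 12 PBL calls. Over all genes, 490 distal sums were called in the same direction in both, which is 52.4% of 936 PL calls and 37.5% of 1307 PBL calls, and the comparisons share no library.

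Cd33 encodes a sialic acid-binding inhibitory receptor. Its distal signal is 1 peak in an exon of the gene, 1817 bp from a start site (chr7:43530295-43530861, GRCm38), which had 42, 44.8 and 44.6 CPM in PBL, against 13.4 and 13.5 CPM in PBP, and 37.9 and 37.7 CPM in PL, against 18.9 and 21.9 CPM in PP. Each LPS library was above each PBS library. The log2 change of the distal sum was 1.7 ± 0.22 (adjusted p = 1e-09) in PBL, a 3.26-fold rise, and 0.89 ± 0.26 (adjusted p = 0.0112) in PL. The PL call was lost without PP 1_2 (0.154), PP 3_4 (0.0728) or PL 3_4 (0.0597), and the PBL call was kept without each library. The Cd33 promoter sum was 77.8, 98.8 and 83.4 CPM in PBL and 88.9 and 90.3 CPM in PBP, which overlapped. With promoters taken as 3000 bp, the exon peak counts as promoter and Cd33 has no distal sum. Its promoter sum is then the locus sum, which was called higher in PL and in PBL.

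Ctsl encodes the lysosomal cysteine protease cathepsin L. Its distal sum was 43.4, 55.9 and 49 CPM in PBL, against 31.1 and 28.6 CPM in PBP, and 50.9 and 70.1 CPM in PL, against 39.9 and 31.9 CPM in PP. The groups were apart in both comparisons, with PL 3_4 highest. The log2 change was 0.74 ± 0.18 (adjusted p = 0.00145) in PBL and 0.77 ± 0.21 (adjusted p = 0.00588) in PL, and the PL call was lost without PP 3_4 (0.189) or PL 3_4 (0.278). Within the sum, an intergenic peak 27226 bp before the start site (chr13:64398116-64398471) had 18.2, 23.5 and 22.3 CPM in PBL, against 4.87 and 4.51 CPM in PBP, a 4.56-fold rise (adjusted p = 2.92e-07). Limited to peaks within 10000 bp, the distal log2 change of Ctsl was 0.17 in PBL and 0.46 in PL and was called in neither.

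Gpr183, a receptor for oxysterols that guides immune cell migration, had a distal sum of 231 and 327 CPM in PL, against 194 and 205 CPM in PP. PL 3_4 was well above the other 3 libraries, and the log2 change of 0.49 ± 0.12 (adjusted p = 0.00209) was lost without PP 1_2 (0.0618) or PL 3_4 (0.42), with a log2 change of 0.20 without PL 3_4. Over peaks within 10000 bp it was 0.37 and not called (adjusted p = 0.0923). In PBL the distal sum was 240, 294 and 275 CPM, against 202 and 241 CPM in PBP, with overlap of the groups. That log2 change was 0.30 ± 0.10 (adjusted p = 0.0279), lost without PBP 1_2 (0.527), PBL 3_4 (0.144) or PBL 4_5 (0.0928). The Gpr183 peaks at 2750 bp and 22164 bp from the start lie in introns of Ubac2. Itgam, which encodes CD11b, one of the proteins used for sorting, had a distal sum of 165, 174 and 146 CPM in PBL, against 114 and 129 CPM in PBP. All PBL libraries were higher, with a log2 change of 0.41 ± 0.11 (adjusted p = 0.00476), lost without PBP 1_2 (0.211), and the change was -0.06 over peaks within 10000 bp.

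Of the distal sums that fell, Abi3 was called in both comparisons. Abi3, an adaptor of actin remodelling, has 1 distal peak, in its 3′ untranslated region (chr11:95834043-95834725), with 63.8, 56.3 and 52.7 CPM in PBL, against 82.2 and 107 CPM in PBP, and 52 and 43.6 CPM in PL, against 73.5 and 77.6 CPM in PP. Every LPS library was below every PBS library of its comparison. The peak lies 1165 bp from a start site, so that with promoters taken as 3000 bp it counts as promoter. The log2 changes of the distal sum were -0.72 ± 0.14 (adjusted p = 2.36e-05) in PBL and -0.67 ± 0.18 (adjusted p = 0.00616) in PL, and the PL call was lost without PP 3_4 (0.0823) or PL 3_4 (0.117).

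Vsir encodes VISTA, an inhibitory immune checkpoint receptor. Its distal sum was 84.1, 96 and 79.8 CPM in PBL, against 134 and 131 CPM in PBP, a log2 change of -0.62 ± 0.12 (adjusted p = 2.97e-05). PBL was lower throughout. A peak in intron 3 (chr10:60362072-60362751, 12749 bp from the start) had 30.8, 32.8 and 27.1 CPM in PBL, against 69.4 and 74.5 CPM in PBP, a 2.39-fold fall (adjusted p = 1.26e-09). The same peak had 36.7 and 30.8 CPM in PL, against 50.4 and 58.7 CPM in PP, a log2 change of -0.70 ± 0.21 (adjusted p = 0.024). The PL call of the peak was lost without PP 1_2 (0.0754), PP 3_4 (0.247) or PL 3_4 (0.239), and the distal sum of Vsir over peaks within 10000 bp had a log2 change of -0.12 in PBL that was not called.

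Cst3 encodes cystatin C, a secreted inhibitor of cysteine cathepsins. The distal sum was 56.1, 60 and 61.8 CPM in PBL, against 95.6 and 90.3 CPM in PBP, lower in each PBL library (log2 change -0.64 ± 0.13, adjusted p = 0.000115). An intergenic Cst3 peak 9131 bp before the start (chr2:148884823-148885084) had 4.2, 5.54 and 5.12 CPM in PBL, against 21.3 and 12.8 CPM in PBP, a 3.42-fold fall (adjusted p = 1.06e-05), lost without PBP 1_2 (0.068). Tmem119, a membrane protein used as a microglia marker, had a distal sum of 37.1, 36.9 and 32.9 CPM in PBL, against 46.3 and 73.7 CPM in PBP. The PBP libraries lay far apart, and the log2 change of -0.74 ± 0.17 (adjusted p = 0.000497) was lost without PBP 3_4 (0.279), at -0.40, and over peaks within 10000 bp it was -0.35 and not called (adjusted p = 0.522). The Tmem119 promoter sum, 39.2, 35.1 and 31.5 CPM in PBL and 41.4 and 51.2 CPM in PBP, was not called (log2 change -0.41 ± 0.18, adjusted p = 0.339). In PL against PP neither part of Tmem119 was called, with promoter sums of 33.7 and 29.8 CPM in PL and 47.2 and 41.8 CPM in PP.

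The other 4 distal falls in PBL were those of Olfml3 (log2 change -0.59, adjusted p = 0.00161), Selplg, the selectin ligand PSGL-1 (-0.47, adjusted p = 0.0074), Jam2, a junctional adhesion molecule (-0.51, adjusted p = 0.0304), and Rhob (-0.35, adjusted p = 0.0467). The call was lost for Olfml3 without PBP 3_4 (0.0525), for Selplg without PBP 3_4 (0.104) or PBL 4_5 (0.0558), for Jam2 without PBP 3_4 (0.561) or PBL 3_4 (0.194), and for Rhob without PBP 1_2 (0.413), PBP 3_4 (0.0539), PBL 1_2 (0.0675), PBL 3_4 (0.056) or PBL 4_5 (0.155). With promoters taken as 3000 bp, the Olfml3 distal log2 change was 0.05, and over peaks within 10000 bp that of Rhob was 1.01, both turned in direction. The 5 distal calls kept without each library were those of Cd33, Vsir, Cst3, Ctsl and Abi3.

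**Figure D3:**
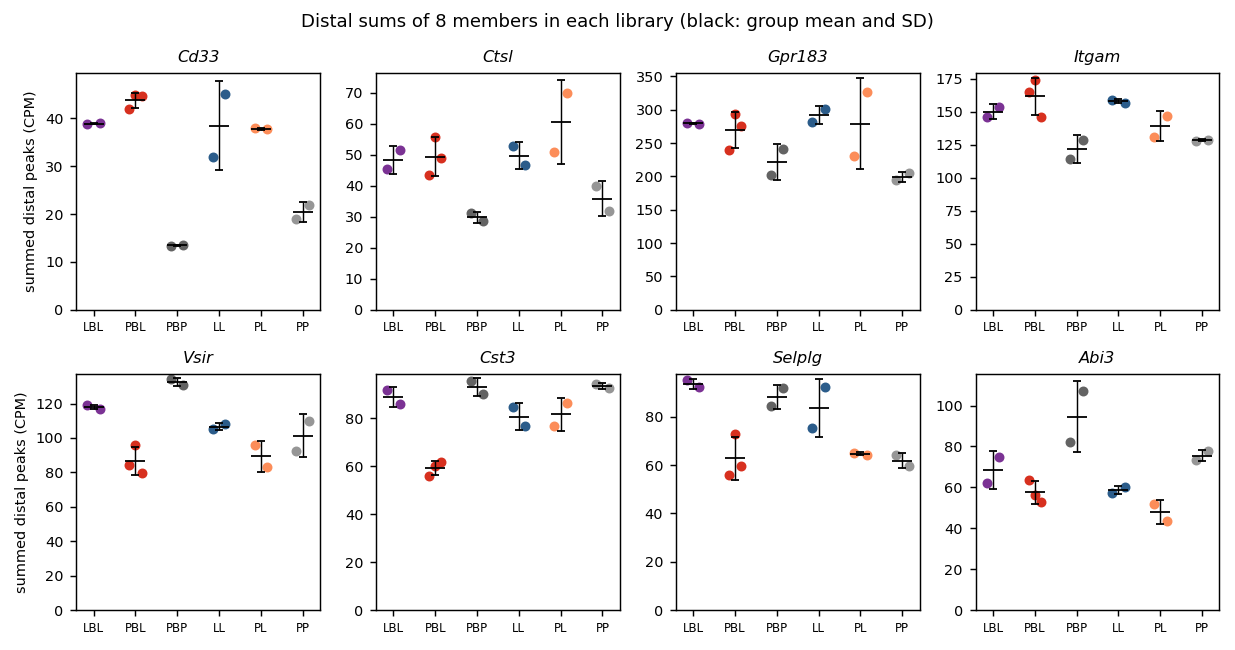
Distal sums (y axis, CPM) of 8 members in each library (coloured points) of the 6 groups (x axis), with the group mean and SD in black. Cd33 and Ctsl lie higher in PBL than in PBP and in PL than in PP, and the PL libraries of Gpr183 stand far apart.

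Single peaks were divided in the same way. Of 218 member peaks tested, 7 rose in PL (4.77% of all 37506 peaks rose) and 11 fell (2.67% of all peaks), and 10 rose in PBL (6.74% of all peaks) and 24 fell (3.23% of all peaks). None of the 58 promoter peaks rose in either (2.25% of all 13804 promoter peaks rose in PL and 3.01% in PBL), while 6 fell in PL (4.62% of all) and 8 in PBL (1.49% of all). Of 160 distal peaks, 7 rose in PL (6.24% of all 23702 distal peaks) and 5 fell (1.54%), and 10 rose in PBL (8.91%) and 16 fell (4.24%). In both comparisons, 10 peaks were called in the same direction (55.6% of the PL calls and 29.4% of the PBL calls, against 39.4% and 29.4% over all peaks), 5 of them higher, at Cd33, Ctsl, Gpr183, Lgmn and Rhob, and 5 lower, at Abi3, Crybb1, Cst3, Rgs10 and Vsir. The PL count of 18 was 2 to 31 with single libraries left out and 1 by DESeq2, and the PBL count of 34 was 17 to 46 and 15.

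Lgmn, which encodes the asparaginyl endopeptidase of lysosomes, was not called as a sum but had a peak 13771 bp before a start site (chr12:102453584-102453930). It had 23.8, 30.9 and 28.9 CPM in PBL, against 11 and 6.77 CPM in PBP, and 23.7 and 30.8 CPM in PL, against 6.3 and 7.96 CPM in PP. LPS libraries were higher throughout, by 3.11-fold in PBL (adjusted p = 2.33e-06) and 3.8-fold in PL (adjusted p = 7.55e-05), and both calls were kept without each library. An intergenic Itgam peak 11527 bp before the start (chr7:128050729-128051113) had 26.6, 20.3 and 20.5 CPM in PBL, against 6.09 and 6.02 CPM in PBP, a 3.58-fold rise (adjusted p = 3.69e-06). In PL that Itgam peak had 13 and 9.56 CPM, against 13.6 and 11.9 CPM in PP, and was not called.

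The Crybb1 promoter peak at the start site (chr5:112255511-112255835), which covers 266 of the 300 bases printed, had 7.01, 10.2 and 12.4 CPM in PBL, against 25 and 35.4 CPM in PBP, and 11.8 and 10.6 CPM in PL, against 24.1 and 23.9 CPM in PP. It was lower in every PBL library than in every PBP library, by 2.85-fold (adjusted p = 1.1e-06). Every PL library was likewise below every PP library, by 2.14-fold (adjusted p = 0.0189). The PL call was lost without PP 1_2, PP 3_4 or PL 3_4, at log2 changes of -1.09, -1.12 and -1.02. Rhob held peaks of both directions in PBL, with log2 changes of -1.53 at 11685 bp after the start and -0.59 at 19358 bp before it, and of 1.02 at 9672 bp before it. The call at 11685 bp was lost without PBP 3_4 (0.19), and that at 19358 bp without PBP 1_2 (0.179). The peak at 9672 bp was also called in PL (adjusted p = 0.024), and it is named outside the rule for naming peaks, after its values were seen. Peaks lower in PBL included those of Adgrg1, the adhesion receptor GPR56 (log2 change -1.12), Bin1, a membrane-shaping adaptor (-0.94), and Jam2 (-1.44). Also lower were a promoter peak of Itgb5, an integrin subunit (-0.89), and the promoter peak of Sparc, a matrix-binding protein (-0.80). Itgb5 has 6 promoter peaks, and their sum was not called (-0.165 ± 0.10). The peak call was lost for Adgrg1 without PBP 1_2 (0.195) or PBL 1_2 (0.0614), for Itgb5 without PBP 3_4 (0.215) and for Sparc without PBP 1_2 (0.1), PBP 3_4 (0.172) or PBL 4_5 (0.0602), and those of Bin1 and Jam2 were kept without each library. In PL a promoter peak of Tyrobp, the signalling adaptor of TREM2, was lower (-0.65, adjusted p = 0.0255), and a peak 20094 bp before Hpgds, a prostaglandin D synthase, was higher (0.76, adjusted p = 0.036). The Tyrobp call was lost without PP 1_2 (0.135), PP 3_4 (0.158) or PL 3_4 (0.228), and the Hpgds call without PP 1_2 (0.362), PP 3_4 (0.0953) or PL 3_4 (0.375).

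**Figure D4:**
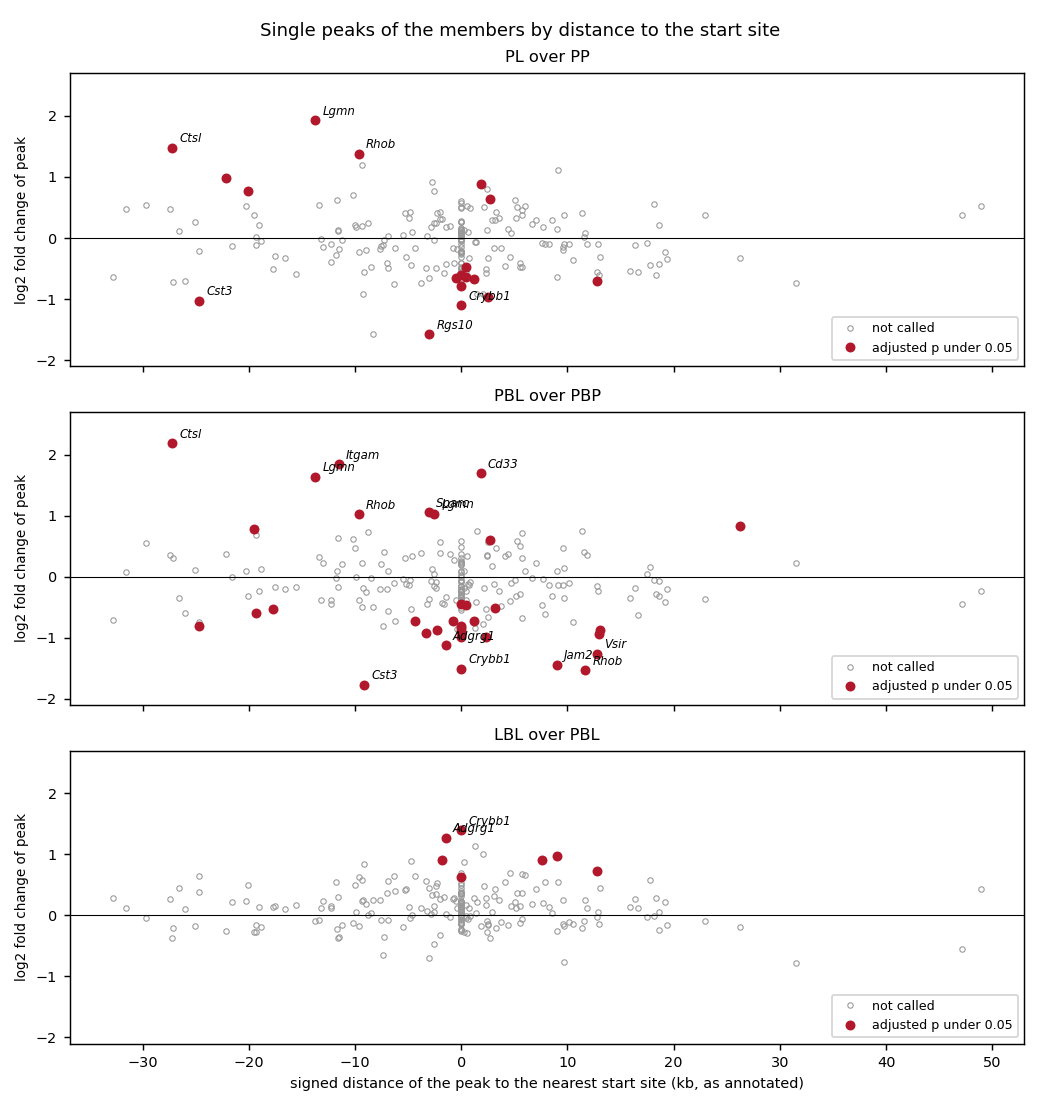
Log2 fold change (y axis) of each of 218 member peaks against its signed distance to a start site (x axis, kb), for PL over PP, PBL over PBP and LBL over PBL, with called peaks in red and named where the change is at least 1 in size. The Crybb1 start site peak lies at -1.10 in the first, -1.51 in the second and 1.40 in the last comparison.

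Whether promoter and distal signal of the same gene changed differently was tested on the log2 ratio of distal to promoter sum with limma. In PL against PP, 2 of 33 members had a lower ratio (6.06%, against 0.685% of 5257 genes), and in PBL against PBP 3 had a higher one (9.09%, against 1.77% of all genes). In PL they were Trem2, the lipid-sensing receptor of microglia, with -1.33 ± 0.30 (SE, adjusted p = 0.0275), and C1qa, a chain of complement C1q, with -1.38 ± 0.35 (adjusted p = 0.0384). The distal sums of both are weak. That of Trem2 had 7.1 and 5.84 CPM in PL, against 14.7 and 9.96 CPM in PP, and that of C1qa 2.96 and 2.13 CPM in PL, against 9.45 and 5.97 CPM in PP. The Trem2 call was lost without PP 1_2 (0.0839), PP 3_4 (0.0509) or PL 3_4 (0.207), and the C1qa call without PP 1_2 (0.174), PL 3_4 (0.242), PBL 3_4 (0.0524), LL 1_2 (0.0596) or LL 3_4 (0.059).

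The promoter sum of Trem2 was 57.4 and 65.9 CPM in PL, against 47.2 and 37.8 CPM in PP. PL was the higher group, and the log2 change of 0.54 ± 0.19 (adjusted p = 0.0693) did not pass the test. In PBL it was 51.2, 56.3 and 57.1 CPM, against 59.7 and 63.2 CPM in PBP, a log2 change of -0.15 ± 0.15. The C1qa promoter sum was 59.1 and 57.4 CPM in PL, against 50.4 and 55.7 CPM in PP, and 55.4, 61.9 and 62.9 CPM in PBL, against 48.7 and 54.2 CPM in PBP, and was called in neither comparison. The 3 ratios higher in PBL were those of Cd33 (1.68 ± 0.25, adjusted p = 0.00311), Sparc (0.96 ± 0.20, adjusted p = 0.0185) and Crybb1 (0.85 ± 0.21, adjusted p = 0.0469). With promoters taken as 3000 bp, Cd33 has no distal peak and so no such ratio. For Crybb1 the promoter sum fell while the distal sum, with 51.2, 47.1 and 46.8 CPM in PBL and 47.5 and 58.7 CPM in PBP, overlapped between the groups. The Sparc ratio was lost without PBP 3_4 (0.174), PBL 1_2 (0.054) or PBL 4_5 (0.0554), and the Crybb1 ratio had adjusted p of 0.0591 to 0.283 without each of 9 libraries in turn.

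Over whole loci, promoter and distal peaks together, 2 of 36 members rose in PL (Cd33 and Gpr183, against 5.36% of 13728 genes) and 5 fell (Abi3, Inpp5d, Ltc4s, Rgs10 and Sparc, against 5.23% of all genes). In PBL, 2 rose (Cd33 and Itgam, against 5.15% of all genes) and 12 fell (against 2.51% of all genes). The 12 were Abi3, Crybb1, Cst3, Cx3cr1, Hpgds, Inpp5d, Olfml3, Rgs10, Rhob, Selplg, Tmem119 and Vsir. Calls were kept without each library for Ltc4s in PL and for Olfml3, Rhob, Vsir, Cst3 and Abi3 in PBL. The PL count of 7 was 1 when PL 3_4 was left out, 14 when PL 1_2 was, and for PP 2 when its 1_2 pool was and 3 when its 3_4 pool was, and the PBL count of 14 was 7 without PBP 3_4. The Ctsd locus had 259, 281 and 268 CPM in PBL, against 267 and 285 CPM in PBP, and 260 and 224 CPM in PL, against 264 and 278 CPM in PP, and was called in neither (log2 changes -0.03 ± 0.08 and -0.17 ± 0.10). The difference between the LPS responses, PBL against PBP minus PL against PP, was called for 0 of 36 members (0.189% of all genes), with 8 at an unadjusted p under 0.05 by edgeR and 0 called by DESeq2 or limma-trend, and without PL 1_2 for 5.

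LPS at both times was compared with LPS at the last injection alone, LBL against PBL after BLZ945 and LL against PL with vehicle. In LBL, 5 of 36 member loci, those of Crybb1, Selplg, Vsir, Cst3 and Itgb5, were higher than in PBL (13.9%, against 0.495% of all genes). No member locus was lower, and over all genes 100 of 13728 were lower. The median log2 change was 0.11 against -0.04 over all genes. The promoter sum was higher for 1 of 36 (0.0553% of all genes), the distal sum for 4 of 33 (12.1%, against 1.92% of all genes) and single peaks in 7 of 218 (3.21%, against 0.957% of all peaks). LBL and PBL shared a sorter but not a day. The 2 LBL libraries differed by no more than counting noise (chi-square per degree of freedom 0.978), and with their mean taken as 1 library, 0 loci, 0 promoter sums and 0 distal sums were called. DESeq2 called 0 of the loci, and no LBL call of a locus, promoter or distal sum was kept without each library.

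The Crybb1 promoter sum was 64.7 and 62.8 CPM in LBL, against 35, 42.9 and 41.3 CPM in PBL. Both LBL libraries were higher, with a log2 change of 0.66 ± 0.16 (adjusted p = 0.0338), and the adjusted p was 0.0513 to 0.412 without each of 9 libraries in turn. The Cst3 distal sum was 91.9 and 86.1 CPM in LBL, against 56.1, 60 and 61.8 CPM in PBL, a log2 change of 0.57 ± 0.13 (adjusted p = 0.00324). The Selplg distal sum was 95.2 and 92.2 CPM in LBL, against 56.1, 72.9 and 59.6 CPM in PBL, a log2 change of 0.56 ± 0.13 (adjusted p = 0.00373). None of these groups overlapped. Vsir had a distal sum of 119 and 117 CPM in LBL, against 84.1, 96 and 79.8 CPM in PBL (log2 change 0.44 ± 0.12, adjusted p = 0.0145). Itgb5, an integrin subunit, had a distal log2 change of 0.33 ± 0.09 (adjusted p = 0.0172). The call was lost for Cst3 without LBL 1_2 (0.0992), for Selplg without LBL 1_2 (0.085) or LBL 3_4 (0.0688), for Vsir without PBL 4_5 (0.137), LBL 1_2 (0.171) or LBL 3_4 (0.144) and for Itgb5 without PBL 4_5 (0.0597), LBL 1_2 (0.232) or LBL 3_4 (0.108).

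The single peaks higher in LBL included the Crybb1 start site peak, with 27.2 and 27.9 CPM in LBL, against 7.01, 10.2 and 12.4 CPM in PBL (2.64-fold, adjusted p = 7.75e-05), which was kept without each library. A Trem2 promoter peak (chr17:48346085-48346754) had 46.6 and 42.5 CPM in LBL, against 32.2, 27.7 and 27.1 CPM in PBL (log2 change 0.64 ± 0.18, adjusted p = 0.036). Its call was lost without PBL 3_4 (0.106), PBL 4_5 (0.163), LBL 1_2 (0.318) or LBL 3_4 (0.18). The others were peaks of Adgrg1 (1.27), Jam2 (0.97), Itgb5 (0.91), Cst3 (0.91) and Vsir (0.73). The call was lost for Adgrg1 without LBL 1_2 (0.0839) or LBL 3_4 (0.137), for Itgb5 without LBL 1_2 (0.0894), for Cst3 without PBL 3_4 (0.0531) or LBL 1_2 (0.305) and for Vsir without PBL 4_5 (0.0942) or LBL 1_2 (0.342), and the Jam2 peak had adjusted p of 0.0533 to 0.584 without each of 8 libraries in turn. LBL against PBL and PBL against PBP share the PBL libraries, so that a low PBL value enters both with opposite sign. The locus log2 changes of Crybb1, Cst3, Selplg and Vsir were 0.45, 0.31, 0.45 and 0.38 in LBL against PBL, and -0.57, -0.40, -0.49 and -0.55 in PBL against PBP.

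In LL against PL, edgeR called 0 of 36 locus sums (0.0364% of all genes), 0 promoter sums (0.0184%), 0 of 33 distal sums (0.086%) and 0 of 218 peaks (0.064% of all peaks), and DESeq2 and limma-trend also called none. At an unadjusted p under 0.05 there were 12 loci, 5 promoter sums, 8 distal sums and 26 peaks. The median log2 change of the member loci was 0.14, against 0.00 over all genes, and 29 of 36 values were above 0. LL and PL cells came from different sorters and days, so that group, sorter and day cannot be told apart, and PL against PP uses the same PL libraries. Cx3cr1 had a locus sum of 198 and 193 CPM in LL and 189 and 187 CPM in PL, and Tmem119 70.7 and 81.9 CPM in LL and 69.8 and 59.5 CPM in PL. The difference LBL against PBL minus LL against PL was called for 0 of 36 members (0% of all genes), with 4 at an unadjusted p under 0.05 by edgeR and 0 called by DESeq2 or limma-trend.

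**Figure D5:**
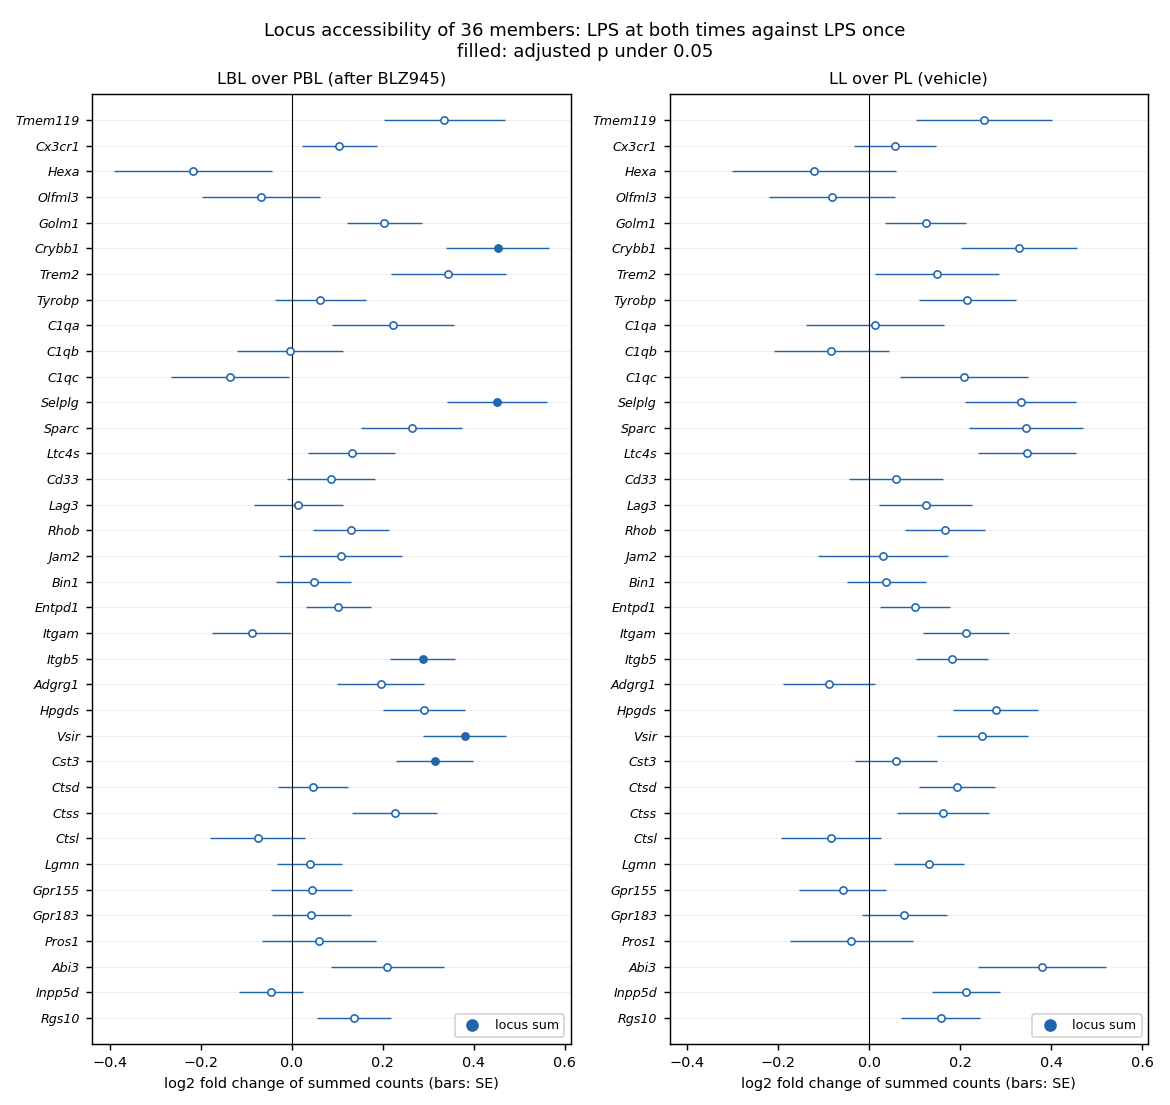
Log2 fold change (x axis, bars: SE) of the locus sum of each of 36 members (y axis), for LBL over PBL on the left and LL over PL on the right, with filled points for an adjusted p under 0.05. The 5 filled points, from 0.29 for Itgb5 to 0.45 for Crybb1, are on the left, and 29 of 36 points lie above 0 in each panel.

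The last comparisons set BLZ945 against vehicle at equal injections. PBP and PP cells came from the same sorter but from different days, so that BLZ945 and day cannot be told apart. In PBP against PP, 1 of 36 loci was called (2.78%, against 0.335% of all genes), that of Selplg, with 119 and 132 CPM in PBP, against 86.1 and 78.6 CPM in PP. PBP was higher in both libraries, with a log2 change of 0.60 ± 0.15 (adjusted p = 0.042). The adjusted p was 0.0511 to 0.33 without each of 9 libraries in turn, and 0.18 with isolation day as a term. That term was set only by the difference between PL 1_2 and PL 3_4. The promoter and distal sums and the peaks had 0 member calls by edgeR (0.0922%, 0.0983% and 0.16% of all), with 7, 5 and 22 at an unadjusted p under 0.05. DESeq2 called none of these, and limma-trend called 2 promoter sums and 2 peaks. The Cx3cr1 promoter sum was 81.6 and 61.7 CPM in PBP and 56.7 and 51.8 CPM in PP (adjusted p = 0.366).

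In PBL against PL no member was called by edgeR, DESeq2 or limma-trend as a locus (0.313% of all genes), a promoter sum (0.101%), a distal sum (0.332%) or a peak (0.0827% of all peaks), with 8, 2, 7 and 17 at an unadjusted p under 0.05 by edgeR. The groups came from different sorters, and without PL 1_2 there were 4 calls among loci, 1 among promoter sums, 6 among distal sums and 5 among peaks. In LBL against LL, sorted on the same machine on different days, no locus (0.117% of all genes), promoter sum (0%), distal sum (0.16%) or peak (0.0507% of all peaks) of the members was called by any of the 3 tools, with 2, 1, 3 and 20 at an unadjusted p under 0.05 by edgeR. Cx3cr1 had a locus sum of 208 and 212 CPM in LBL and 198 and 193 CPM in LL, Trem2 79 and 85.1 CPM in LBL and 73.2 and 76.7 CPM in LL, and Ctsd 285 and 274 CPM in LBL and 280 and 273 CPM in LL.

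In none of the 7 comparisons was a locus, promoter sum, distal sum, single peak or, where tested, ratio of distal to promoter sum called for 8 members. They are the complement chains C1qb and C1qc, the inhibitory receptor Lag3, the lysosomal enzymes Hexa, a hexosaminidase subunit, Ctsd and Ctss, a cysteine protease, Gpr155, a membrane protein of lysosomes, and Pros1, the phagocytosis bridging protein S. Their locus log2 changes were -0.23 to 0.28 in PL against PP, -0.24 to 0.25 in PBL against PBP, -0.12 to 0.21 in LL against PL and -0.22 to 0.23 in LBL against PBL. The Ctss distal sum, for example, was 119, 120 and 116 CPM in PBL, against 104 and 121 CPM in PBP, and 118 and 107 CPM in PL, against 111 and 114 CPM in PP. Both pairs of groups overlapped.

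A list of 24 further homeostatic microglia genes was chosen with earlier results of these data known, so that its counts are no independent test. Of these genes, 2 loci rose in PL (5.36% of all genes) and 6 fell (5.23%), and 0 rose in PBL (5.15% of all genes) and 8 fell (2.51%). Their median log2 change was -0.16 in PL against -0.04 over all genes, and -0.22 in PBL against 0.00 over all genes. Siglech, a sialic acid-binding receptor, had log2 changes of -0.89 in PL (adjusted p = 2.66e-05) and -1.17 in PBL (adjusted p = 1.11e-10), and the engulfment receptor Mertk -0.82 in PL and -0.52 in PBL. Mertk was higher in LL than in PL (0.48, adjusted p = 0.0308) and in LBL than in PBL (0.44, adjusted p = 0.00172), where Upk1b (0.70) was among the calls too. Of 32 further lysosome genes, 31 were tested, and 3 rose and 1 fell in PL (5.36% and 5.23% of all genes), with the same counts in PBL (5.15% and 2.51%). Their median log2 change was 0.05 in PL, against -0.04 over all genes, and -0.04 in PBL, against 0.00 over all genes. Ppt1, a lysosomal thioesterase, rose in both (0.67 and 0.49), and Ctsa, a lysosomal carboxypeptidase, fell in both (-0.55 and -0.39). Neither list had a call in PBP against PP, PBL against PL or LBL against LL.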

How the data were processed

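ATAC-seq was measured in 13 libraries of 6 groups. The authors deposited 1 table of estimated counts per peak, unnormalized and in steps of 0.5, for 38620 peaks. It also holds a signed distance score in bp to the nearest start site and a peak annotation, per the file headers. Among the tools in the submitters' processing notes are Bowtie2 2.2.6, MACS2 2.1.1 and ChIPseeker 1.38, with the build GRCm38. The counting tool, any read shift and the pooling of libraries for peak calling are not given in the sources used here. A second table deposited by the authors gives the sorter and isolation day.

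Counts were summed per gene over peaks within 50000 bp of a start site, and apart over peaks the annotation calls promoter and all others (distal), then rounded to whole numbers. Sums and single peaks were fitted with edgeR 4.0.16 (R 4.3.3, quasi-likelihood, 6 group means over all libraries, TMM factors from all tested peaks, filterByExpr with a minimum count of 10), with Benjamini-Hochberg adjustment over all features of a class. The distal-minus-promoter ratio was fitted with limma 3.58.1 on log2 CPM with a prior count of 2. DESeq2 1.42.0 and limma-trend were alternatives, and the scripts were tested on simulated data. CPM are scaled to the total count in peaks times the TMM factor, and values are given with the SE of the fitted change. Libraries are pools of animals, and p-values measure the spread between pools.

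The members and lists were chosen with earlier results of these data known. Members with a called promoter or distal sum are named, and Tmem119, Cx3cr1, Trem2, C1qa and Ctsd whatever their result. Called single peaks could be named, at most 3 per member by smallest p. Not all of these are described, among them those of Golm1 and Entpd1. Library values are given for the leading members of each direction. Taking TMM factors within each class, and taking the LBL pair as 1 library, were chosen after seeing the data. The PP pair also did not clearly exceed counting noise (chi-square per degree of freedom 1.01), and it was not taken as 1 library. The check of either pair takes each unit as 1 independent count, which is not known to hold. A named result of the further homeostatic genes is not reported here.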

Additional observations from a re-analysis of the deposited data

How the results depend on the processing

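Of 794 alternative counts of called members or peaks, 686 stayed within 1.5 times the count reported and 108 did not. Leaving out single libraries gave 1 to 14 loci in PL against PP (7 reported), 7 to 19 in PBL against PBP (14), 0 to 6 in LBL against PBL (5), 0 to 1 in PBP against PP (1), 0 to 4 in PBL against PL (0) and 0 to 5 for PBL against PBP minus PL against PP (0). For promoter sums it gave 0 to 7 in PL against PP (3), 1 to 8 in PBL against PBP (5), and 0 to 1 in LL against PL (0), LBL against PBL (1) and PBL against PL (0). For distal sums it gave 0 to 7 in PL against PP (4), 7 to 16 in PBL against PBP (12), 0 to 4 in LBL against PBL (4) and 0 to 6 in PBL against PL (0). For the ratio it gave 0 to 4 in PL against PP (2) and 1 to 3 in PBL against PBP (3), and for peaks 2 to 31 in PL against PP (18), 17 to 46 in PBL against PBP (34), 1 to 13 in LBL against PBL (7) and 0 to 5 in PBL against PL (0). DESeq2 called 3 loci, 2 distal sums and 1 peak in PL against PP, 2 promoter sums and 15 peaks in PBL against PBP, 0 loci, 0 promoter sums, 1 distal sum and 1 peak in LBL against PBL, and 0 loci in PBP against PP. limma-trend called 2 loci and 0 promoter sums in LBL against PBL, and 2 promoter sums and 2 peaks in PBP against PP. An isolation day term is set only by the difference between PL 1_2 and PL 3_4, as no other group was split between days. In PL against PP it left PL 3_4 alone against PP, so that its counts are not given. In PBP against PP it gave 3 loci, 1 promoter sum and 4 distal sums. Peaks within 10000 bp gave 3 loci in LBL against PBL, 0 in PBP against PP and 5 ratios in PBL against PBP. Promoters within 3000 bp gave 6 promoter and 2 distal sums in PL against PP, and 9 and 7 in PBL against PBP. Factors within each class gave 0 loci in PBP against PP. With the LBL pair as 1 library there were 0 loci, 0 promoter sums, 0 distal sums and 1 peak in LBL against PBL, and 0 loci in PBP against PP. The cause of these shifts was not tested.

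The pool numbers gave little sign of pairing the libraries. Of 30 same-numbered pairs, the correlations of deviations from group means were -0.0174 to 0.162 and 2 were over 0.1, both of PL with PBL. In groups of 2 libraries the deviations mirror each other, so that the 3_4 pairs among them repeat the 1_2 values and the check is limited. With the replicate block, 7 loci were called in PL against PP, 13 in PBL against PBP, 2 in LBL against PBL and 1 for PBL against PBP minus PL against PP, with 3 promoter sums in PBL against PBP and 4 peaks in LBL against PBL.

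Of 3441 alternative values of named members and peaks, 9 turned in direction. The distal change in PBL against PBP was 0.0466 for Olfml3 with promoters within 3000 bp, and 1.01 for Rhob and -0.0637 for Itgam within 10000 bp. The C1qa locus in PL against PP, not called, was -0.00145 with DESeq2 size factors, -0.000425 by DESeq2, -0.0186 with the day term, -0.0176 without PP 1_2 and -0.0185 without PL 1_2, with a leave-one-out range up to 0.0518. The Ctsd locus in PBL against PBP, also not called, was -0.0978 to 0.00896 with single libraries left out.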
